A study of Danio rerio with 10 samples.

Results

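The genes described here encode proteins that make ribosomes: subunits of RNA polymerase I, proteins of the small nucleolar ribonucleoproteins (snoRNPs) that modify pre-ribosomal RNA, and nucleolar factors that process and assemble the small and the large ribosomal subunit. They were chosen by symbol alone (the nop, nol, utp, imp, rrp and polr1 families and bop1, pes, fbl, nhp2, gar1, dkc1, wdr12, wdr43 and twistnb). The rule took 37 of the 14563 gene symbols in the files, and where a symbol had several records the one with most reads was used. Of these, imp3 alone had more than 1 record. The rule used no measured value, but it was set with earlier results of these data known.

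Ribosome production starts in the nucleolus, where RNA polymerase I transcribes a long precursor RNA. Box C/D snoRNPs methylate this precursor and box H/ACA snoRNPs convert some of its uridines to pseudouridine. The U3 snoRNP and the UTP complexes assemble on the precursor into the small-subunit processome, which prepares the small subunit, while other factors such as the PeBoW complex are needed for the large subunit. In growing embryos these genes tend to be strongest where cells divide and grow, and block of the process is a known trigger of the p53 response.

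Polyadenylated RNA of TL strain zebrafish was sequenced 36 hours post fertilization. Controls were wildtype embryos from crosses of TL with TL, and siblings (fn10a+/- and +/+ together) and mutants (fn10a-/-) both came from crosses of fn10a heterozygotes. Each of these 3 groups had 2 whole-embryo libraries of 30 embryos, and separated nuclei and cytoplasm of the siblings and the mutants gave 1 library each. Siblings were thus a mixture of genotypes, and no group carried an agent. The labels do not tell whether replicates were separate clutches; a p-value here measures only how far these libraries spread, and that spread may be technical. In whole embryos, fewer cells of a type and less RNA per cell cannot be told apart.

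The listed transcripts held 34060890 to 82752349 reads in the whole-embryo libraries and 7164408 to 19195327 in the fractions, the fewest in mutant nuclei. Replicate number parted the libraries more than genotype did: the component with 60.1% of the variance separated replicates, and the next, with 21.5%, the mutants. Listed transcripts took 54.2% to 58.7% of the authors' read totals in replicate 1 and 31.6% to 33.7% in replicate 2. The labels name no gene for fn10a. From knowledge of the study it is a mutation of eftud2, a spliceosome GTPase, whose transcript had 30.2 and 10.5 RPKM in controls (replicates 1 and 2), 28.1 and 9.91 in siblings and 11.3 and 3.6026 in mutants. It was lower in mutants than in siblings (-1.35 on the log2 scale, adjusted p = 0.0183, edgeR).

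All 37 genes were expressed, with 252 to 26254 reads each in the whole-embryo libraries and 66 to 6047 in mutant nuclei, the shallowest library. Levels are given as RPKM, reads scaled to transcript length and to the authors' read total, in the order replicate 1, replicate 2. Fibrillarin (fbl), the methyltransferase of box C/D snoRNPs, had the highest mean on this per-length scale, 77.5 RPKM over the 6 libraries, followed by its scaffold partner nop56 with 55.2 and the pseudouridine synthase dkc1 with 40.7. The lowest means were those of nol8, a large-subunit factor, with 2.68 RPKM and of polr1b, a catalytic subunit of RNA polymerase I, with 2.81. The median of the 37 genes stood at 13.7, 13.9 and 13.4 RPKM in replicate 1 of controls, siblings and mutants, and at 4.26, 6.23 and 6.93 in replicate 2. Every one of the 37 was listed lower in replicate 2 of each group, except gar1 and nhp2l1b in mutants, where replicate 2 was higher. RPKM is scaled to the authors' totals, of which listed transcripts took a smaller share in replicate 2. A lower RPKM there is thus not by itself particular to the set. With the library scaling of edgeR the set was still lower in replicate 2, with a median log2 of -0.38 against 0.004 over all genes. On that scale 9 of the 37 were higher in replicate 2, where 5093 of 10147 genes were.

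**Figure D1:**
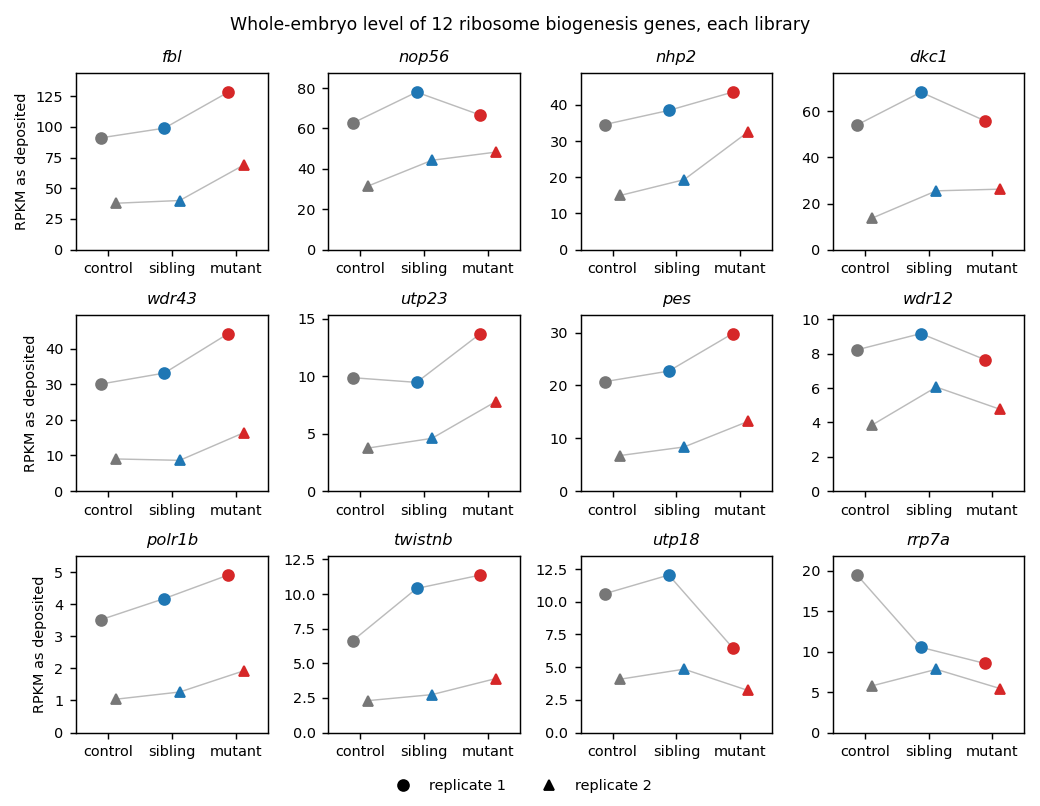
RPKM as deposited (vertical axis, from 0) of 12 of the genes in the 6 whole-embryo libraries; circles are replicate 1, triangles replicate 2, and grey lines join libraries of the same replicate number. In fbl, wdr43, utp23 and pes the mutant library is the highest of its replicate, in utp18 it is the lowest, and replicate 2 lies below replicate 1 in each of these 5 genes and every group.

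The comparison of mutants with siblings asks which of these transcripts differ between embryos of the same crosses. Most stood somewhat higher in mutants, but none passed the test. fbl, the UTP-A protein wdr43, the processome factor utp23 and the large-subunit factor pes stood about 1.5 to 1.6 times as high as in siblings, and the UTP-B protein utp18 stood lowest, at 0.614 times. Of the 37 genes, 0 passed an adjusted p of 0.05 (quasi-likelihood test of edgeR with a term for replicate number), against 1.74% of all 10147 genes tested, 1.16% that rose and 0.581% that fell. The smallest adjusted p was 0.0686, for wdr43. At an unadjusted p under 0.05 there were 9 genes, against 23.2% of all genes in either direction, a share near that background. Of the 9, 8 were higher, where 1161 of all 10147 genes were higher at that p. By DESeq2 5 passed (fbl, pes, utp23 and wdr43 higher, utp18 lower), where 11.8% of all genes did, 617 higher and 581 lower. By limma 0 passed, where 2.68% of all genes did. In a fit of the 4 mutant and sibling libraries alone 9 passed, where 22.2% of all genes did. Without control replicate 1 or 2 there were also 9, where 22% and 21.4% of all genes passed.

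The direction was more often upward than among all genes. The fold change was above 0 for 27 of the 37 genes, against 5070 of 10147 genes, and its median was 0.24 on the log2 scale (1.18-fold), against -0.001 over all genes. Within both replicates 24 of the genes were higher in the mutant library, where 38.8% of all genes were, and 8 were lower in both, where 37.9% were. The median was 0.10 in replicate 1 and 0.36 in replicate 2. The median of the fit depended on mutant replicate 2: without that library it was -0.02. That fit takes its replicate term from controls and siblings, so it is not the difference within replicate 1. In replicate 1 alone, 25 of the 37 genes were above 0, where 5223 of 10147 genes were. Because replicates differ so much in level, RPKM of mutants and siblings overlapped for all 37 genes, where 6.07% of all genes stood apart with mutants higher and 8.55% with mutants lower.

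**Figure D2:**
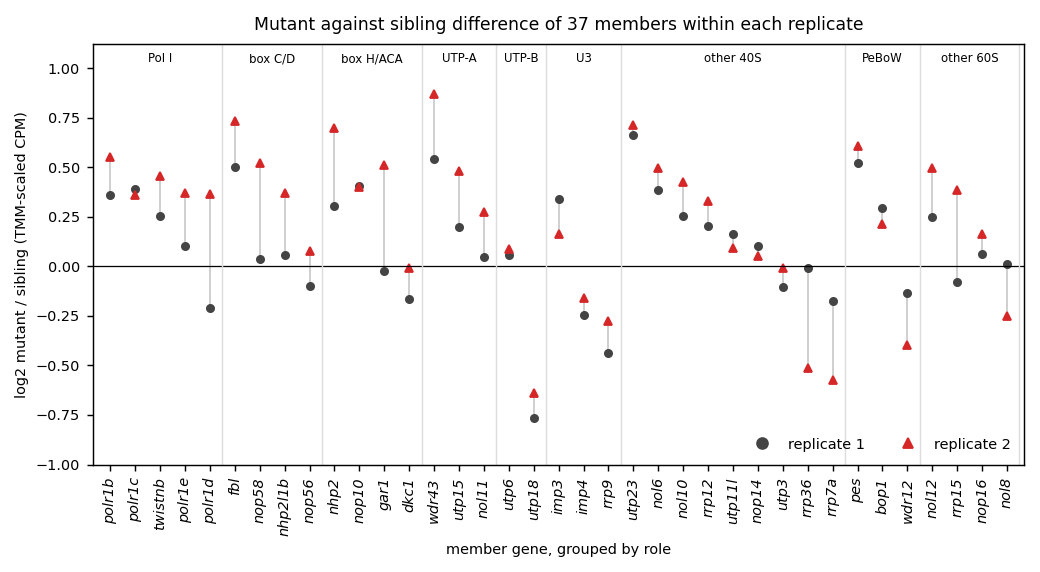
Difference between mutant and sibling libraries of the same replicate number (log2 of TMM-scaled CPM, vertical axis) for each of the 37 genes, grouped by role; circles are replicate 1, red triangles replicate 2. Most points lie above 0, 24 genes lie above it in both replicates, and utp18 lies lowest in both.

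The 5 subunits of RNA polymerase I that the symbol rule took all had a fold change above 0, with a median of 0.35 on the log2 scale. polr1b stood at 3.52 and 1.04 RPKM in controls, 4.18 and 1.26 in siblings and 4.92 and 1.92 in mutants. Within each replicate the mutant library was the highest and the control library the lowest. The difference from siblings was 1.37-fold (95% interval 1.05 to 1.79, adjusted p = 0.166 by edgeR). polr1c, shared with RNA polymerase III, stood at 6.41 and 3.02 RPKM in controls, 7.24 and 3.86 in siblings and 8.69 and 5.13 in mutants, with the same order within each replicate. polr1d, also shared with RNA polymerase III and the subunit with the highest level, had 14.2 and 4.25 RPKM in controls, 19.0 and 5.55 in siblings and 15.01 and 7.40 in mutants. Its mutant library was below the sibling library in replicate 1 and above it in replicate 2. The log2 fold changes of polr1e and twistnb, which help the polymerase to initiate, were 0.24 and 0.35.

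Among box C/D proteins fbl differed most. It stood at 91.0 and 37.8 RPKM in controls, 98.95 and 40.01 in siblings and 128 and 68.9 in mutants (chromosome 16, 44947119 to 44955539, minus strand, danRer7). Mutants were the highest library of each replicate, and the groups overlapped since replicate 2 of mutants lies below replicate 1 of siblings. The difference from siblings was 1.54-fold (95% interval 1.23 to 1.92, log2 standard error 0.126, adjusted p = 0.0816 by edgeR). Of the 2 scaffold proteins that hold the same particles with fbl, nop56 had a log2 fold change of -0.01 (interval of the fold 0.772 to 1.28). For nop58 it was 0.30 (0.836 to 1.80), an interval that includes the fold of fbl. nhp2l1b, the RNA-binding protein named snu13b in RefSeq, had 0.22. The difference between fbl and its partners was not tested.

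Of the box H/ACA proteins nhp2 stood at 34.6 and 14.96 RPKM in controls, 38.4 and 19.3 in siblings and 43.5 and 32.5 in mutants. It was highest in mutants within each replicate, by a log2 of 0.30 over siblings in replicate 1 and 0.70 in replicate 2. The fold was 1.43 (95% interval 1.02 to 1.99, adjusted p = 0.198 by edgeR). nop10, a small subunit of the same particle, had 47.1 and 10.6 RPKM in controls, 48.9 and 13.9 in siblings and 59.4 and 19.0 in mutants, a log2 fold change of 0.40. gar1, which helps substrate release, had 0.25. The catalytic subunit dkc1 stood at 54.1 and 13.7 RPKM in controls, 68.4 and 25.5 in siblings and 55.9 and 26.3 in mutants, with a fold of 0.946 against siblings (95% interval 0.651 to 1.38). In dkc1 the mutant library lay near the control in replicate 1 and near the sibling in replicate 2, and the control libraries were the lowest of each replicate.

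The 3 UTP-A proteins, which load onto the precursor RNA early, had fold changes above 0. wdr43 (chromosome 17, 24649766 to 24663838, plus strand) stood at 30.1 and 9.03 RPKM in controls, 33.2 and 8.64 in siblings and 44.3 and 16.4 in mutants. Controls and siblings lay close together in each replicate and the mutant library above both. The difference from siblings was 1.63-fold (95% interval 1.30 to 2.05, log2 standard error 0.129, adjusted p = 0.0686 by edgeR). utp15 and nol11 had log2 fold changes of 0.35 and 0.16.

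Of the 2 UTP-B proteins in the set, utp18 stood lower in mutants and utp6 lay near the siblings. utp18 (chromosome 19, 49866150 to 49873613, plus strand) stood at 10.6 and 4.08 RPKM in controls, 12.04 and 4.84 in siblings and 6.48 and 3.22 in mutants. The mutant library was the lowest of each replicate. The fold against siblings was 0.614 (95% interval 0.476 to 0.792, log2 standard error 0.144, adjusted p = 0.0827 by edgeR). The record overlaps ext1c on the same strand, so its reads may be mixed, and ext1c had a log2 fold change of 0.12 (adjusted p = 0.722 by edgeR). utp6, with 12.6 and 3.91 RPKM in controls, 13.5 and 6.29 in siblings and 12.8 and 6.93 in mutants, had 0.07. The difference between utp18 and utp6 was not tested.

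Of the proteins bound to the U3 snoRNP, imp4 and rrp9 stood lower in mutants and imp3 higher. rrp9 had 10.1 and 3.92 RPKM in controls, 11.5 and 5.73 in siblings and 7.82 and 4.90 in mutants, a log2 fold change of -0.35 against siblings (adjusted p = 0.317 by edgeR). imp4 had 20.0 and 4.45 RPKM in controls, 21.98 and 7.33 in siblings and 17.0 and 6.79 in mutants, a log2 fold change of -0.20. For both, the sibling libraries were the highest of each replicate. imp3 had 24.1 and 8.21 RPKM in controls, 23.4 and 8.47 in siblings and 27.1 and 9.83 in mutants, with 0.25.

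The other 9 small-subunit factors ranged from a log2 fold change of -0.40 for rrp7a to 0.69 for utp23. utp23, a processome protein, stood at 9.86 and 3.74 RPKM in controls, 9.45 and 4.59 in siblings and 13.7 and 7.78 in mutants. Its mutant library was the highest of each replicate, and the fold against siblings was 1.61 (95% interval 1.17 to 2.22, log2 standard error 0.182, adjusted p = 0.119 by edgeR). nol6, another processome protein, stood at 11.9 and 2.51 RPKM in controls, 10.7 and 3.64 in siblings and 12.8 and 5.31 in mutants, with a log2 fold change of 0.44. rrp12, whose yeast counterpart takes part in subunit export, was the highest of this group in mean level. It had 25.5 and 5.85 RPKM in controls, 26.7 and 7.63 in siblings and 28.2 and 9.94 in mutants, with 0.27. Both had the mutant library on top in each replicate.

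rrp7a and rrp36, both early small-subunit factors, were the least steady. rrp7a had 19.4 and 5.77 RPKM in controls, 10.5 and 7.80 in siblings and 8.53 and 5.43 in mutants. rrp36 had 8.60 and 2.36 RPKM in controls, 5.83 and 3.99 in siblings and 5.30 and 2.89 in mutants. The sibling library was below the control library in replicate 1 and above it in replicate 2, for both. Their log2 standard errors, 0.345 and 0.343, were the widest of the 37 genes. The remaining members of the group, nol10, nop14, utp11l and utp3, lay between -0.05 and 0.34.

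In the PeBoW complex the fold against siblings was above 1 for pes and below 1 for wdr12, and the difference between them was not tested. Against controls both were above 1, with 1.66 for pes and 1.06 for wdr12. pes (chromosome 5, 14039346 to 14067732, plus strand), the zebrafish pescadillo gene, stood at 20.7 and 6.73 RPKM in controls, 22.7 and 8.35 in siblings and 29.8 and 13.2 in mutants. In each replicate the order was control, sibling, mutant from low to high. The fold against siblings was 1.48 (95% interval 1.17 to 1.88, log2 standard error 0.136, adjusted p = 0.104 by edgeR). wdr12 stood at 8.23 and 3.86 RPKM in controls, 9.17 and 6.06 in siblings and 7.66 and 4.76 in mutants, a fold of 0.828 (95% interval 0.605 to 1.13). Siblings were its highest library in each replicate, and bop1, the other partner, had a log2 fold change of 0.25. Of the other large-subunit factors, nol12 had 9.80 and 1.60 RPKM in controls, 9.40 and 2.86 in siblings and 10.2 and 4.19 in mutants (log2 fold change 0.39). nop16 had 29.2 and 8.25 RPKM in controls, 46.9 and 10.4 in siblings and 44.7 and 12.04 in mutants (0.11). In nop16 siblings and mutants lay close together above the controls, and rrp15 and nol8 had 0.18 and -0.13.

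Mutants were also compared with wild-type controls, which share no parents with them. The same mutant libraries serve in both comparisons, so these values are not a second, independent measurement. Again 0 of the 37 genes passed the adjusted p of 0.05, against 3.48% of all genes, 1.91% that rose and 1.57% that fell. At an unadjusted p under 0.05 there were 18, against 28.1% of all genes in either direction. Of the 18, 17 were higher, where 1348 of all 10147 genes were higher at that p. By DESeq2 14 passed, 13 of them higher, where 17% of all genes did, 864 higher and 857 lower. By limma 0 passed, where 4.45% of all genes did. The fold change was above 0 for 33 genes and its median was 0.48 on the log2 scale (1.40-fold), against -0.01 over all genes. Within both replicates 28 genes were higher in mutants, where 32.6% of all genes were, and 2 were lower in both, where 34.1% were. wdr43, fbl and pes had folds of 1.62, 1.59 and 1.66, with adjusted p of 0.0559, 0.0563 and 0.0563 by edgeR. twistnb had the highest log2 fold change, 0.76, and rrp7a the lowest, -0.71. RPKM of the groups did not overlap for 2 genes, gar1 and nhp2l1b, both higher in mutants, where 8.62% of all genes stood apart this way; 0 stood apart lower, where 7.8% did. These values depend on single libraries. Without control replicate 1 the median was 0.72. Without control replicate 2 the median was 0.18, and without mutant replicate 2 it was 0.28.

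Siblings, part of which are heterozygous, were also compared with the controls. The comparison shares its libraries with the other 2. The fold change of siblings against controls was above 0 for 34 of the 37 genes, with a median of 0.24 on the log2 scale (1.18-fold), against 0.002 over all genes. The size of this difference depended on control replicate 2: without it 19 genes were above 0 and the median was 0.007. That fit takes its replicate term from siblings and mutants. In replicate 1 alone, 25 of the 37 genes were above 0, where 4827 of 10147 genes were, with a median of 0.05. In the fit of all 6 libraries none of the 37 passed, and 0% of all genes did. At an unadjusted p under 0.05 there were 3 of the 37, where 8.65% of all genes passed. All 3 were higher, where 358 of 10147 genes were higher at that p. DESeq2 called 0.966% of all genes and 0 of the 37, and without control replicate 1 edgeR called 2 of them (dkc1 and nol8), where 4.05% of all genes passed. Within both replicates 24 genes were higher in siblings and 0 lower, against 27.1% and 28.6% of all genes. The sum of RPKM over the 37 genes in replicate 1 was 786 in controls, 878 in siblings and 899 in mutants, and in replicate 2 it was 283, 378 and 494. In both replicates the order of the sums was thus control, sibling, mutant. Abundant genes weigh most in a sum: fbl alone had 98.955 RPKM in siblings and 128.31 in mutants of replicate 1. The median RPKM of the 37 genes kept this order in replicate 2 only. In replicate 1 it was 13.7 in controls, 13.9 in siblings and 13.4 in mutants, the lowest. With the library scaling of edgeR the median log2 difference of mutants from siblings in replicate 1 was 0.10. The genotype of siblings, their cross and their clutch cannot be told apart.

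All 3 comparisons were larger in replicate 2. The medians were 0.10 and 0.36 for mutants against siblings, 0.14 and 0.75 for mutants against controls, and 0.05 and 0.40 for siblings against controls, while those over all genes stayed between -0.02 and 0.01. The replicates themselves differed in these genes, with a median log2 of -0.38 for replicate 2 against replicate 1, against 0.004 over all genes. Of the 37 genes 18 were lower in replicate 2 and 2 higher (gar1 and nhp2l1b) at an adjusted p of 0.05 by edgeR. Of all 10147 genes 2340 were lower and 2443 higher, 47.1% in either direction. They ranged from -1.41 for bop1 to 0.77 for nhp2l1b. The part of this replicate difference in the fold changes was not tested.

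**Figure D3:**
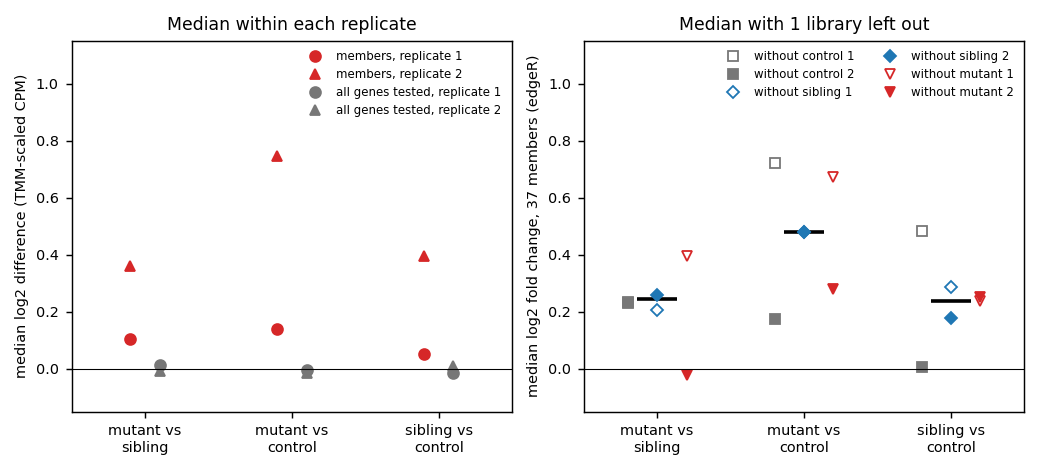
Median log2 difference of the 37 genes in 3 comparisons. Left, within each replicate (circles replicate 1, triangles replicate 2), red for the 37 genes and grey for all genes tested; right, the median fold change from edgeR (black bar) and with each library left out. Red points lie above grey ones and are higher in replicate 2, and without mutant replicate 2 the median of mutants against siblings is -0.02.

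Of a list of other genes of the pathway, 111 were tested. In mutants against siblings 2 rose and 0 fell, where 1.16% and 0.581% of all genes did, a share near that background. Of the list 70 had a fold change above 0 and the median was 0.14 on the log2 scale. ruvbl1, an ATPase that takes part in snoRNP assembly and in chromatin remodelling, stood at 39.9 and 15.098 RPKM in controls, 49.1 and 15.3 in siblings and 145 and 66.0 in mutants. It rose 3.66-fold against siblings (adjusted p = 0.0122 by edgeR), and both mutant libraries lay above all 4 others. The other gene that rose was znf593, whose yeast counterpart accompanies the large-subunit precursor out of the nucleus, by 2.08-fold (adjusted p = 0.0421 by edgeR). Against controls 4 rose, where 1.91% of all genes did: these 2, nmd3, the export adaptor of the large subunit, by 3.06-fold, and nip7, a late maturation factor, by 2.04-fold (adjusted p = 0.0353 and 0.0356 by edgeR). By role, 27 of 37 small-subunit genes and 35 of 49 large-subunit genes had fold changes above 0 against siblings, with medians of 0.24 and 0.19. Of 7 other genes for transcription by RNA polymerase I 4 were above 0 against siblings, with a median of 0.13, and znrd1 among them had 0.14. The median of these 7 was -0.01 within replicate 1 and -0.13 within replicate 2. Of the 14 genes of the RNA exosome and of pre-rRNA decay 1 was above 0 against siblings, with a median of -0.23, and 7 were above 0 against controls, with a median of -0.01.

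Other gene lists moved with the comparison of mutants and siblings, and their part in the values of the 37 genes was not tested. Of 12 markers of proliferating cells 1 had a fold change above 0 and 1, top2a, fell, with summed RPKM of 907 and 446 in controls, 1045 and 487 in siblings and 700 and 451 in mutants. The median log2 difference of these markers was -0.61 in replicate 1 and -0.24 in replicate 2, where that of the 37 genes was 0.10 and 0.36. Of 9 p53 target genes 8 rose, with sums of 179 and 229 RPKM in controls, 192 and 152 in siblings and 756 and 697 in mutants. Of 9 neural progenitor markers 0 were above 0 and 1 fell, with sums of 393 and 166, 386 and 156, and 223 and 111 RPKM. Of 8 erythroid markers 0 were above 0 and none passed, with sums of 5762 and 13390, 9510 and 12049, and 4802 and 6327 RPKM. Of 10 skeletal muscle markers 3 were above 0, with sums of 6584 and 1377, 7698 and 1765, and 6480 and 1723 RPKM. Of 6 notochord and floor plate markers 6 were above 0 and none passed, with sums of 91.6 and 163, 131 and 158, and 159 and 233 RPKM. No marker of these lists was at 0 summed over a group, so none of these cell types can be called absent.

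Nuclear and cytoplasmic RNA gave 1 library per fraction and genotype, so the differences have no replicate check and no test. They are given on the scale of log2(RPKM + 1), relative to the median of 8631 genes, since the median gene moved by -0.84 between sibling and mutant nuclei as deposited. In siblings these mRNAs leaned to the cytoplasm: 31 of the 37 genes were below the median gene and the median was -0.23 (-0.45 without the centring). The lowest were nop58 (-0.86), nhp2l1b and dkc1 (both -0.79), and the highest nol8 (0.22). None differed by a log2 of 1 or more, which 1.76% of all genes did upward and 5.43% downward. In mutants the lean was not seen, with 19 genes above the median gene, 18 below and a median of 0.02, which was -0.12 with a pseudocount of 5 and -1.04 without the centring. There twistnb (1.53) and dkc1 (1.21) were nuclear by a log2 of 1 or more, as were 6.08% of all genes, and 0 were cytoplasmic by as much, where 8.79% were. Without the centring twistnb stood at 0.47 and dkc1 at 0.16. On that scale 0 of the 37 reached a log2 of 1 upward, where 0.324% of all genes did. Downward 19 of the 37 reached it, and the median gene itself stood at -1.06.

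Relative to the median gene, 31 of the 37 genes were higher in the mutant than in the sibling nucleus, with a median of 0.50. As deposited 9 were above 0, where 11.1% of all genes were. A few mRNAs of the set had the largest differences. twistnb, a subunit of RNA polymerase I, had 6.11 RPKM in the sibling nucleus, 17.6 in the mutant nucleus, and 11.8 and 12.4 in sibling and mutant cytoplasm. The mutant nucleus was the highest of the 4 libraries, from 791 reads against 312 in the sibling nucleus. dkc1 had 33.5 RPKM in the sibling and 76.4 in the mutant nucleus, against 68.1 and 68.4 in cytoplasm. The box C/D scaffold gene nop58 stood at 38.0 and 65.3 RPKM in nuclei, and at 81.2 and 88.9 in cytoplasm, where it was higher in both genotypes. Relative to the median gene the mutant nucleus exceeded the sibling nucleus by a log2 of 2.22 in twistnb, 2.004 in dkc1, 1.61 in nop58, 1.18 in nop56 and 1.13 in nop16. These were 5 of the 37 genes, against 7.72% of all genes, and 0 were lower by as much, against 6.02%. As deposited, without the centring, 2 of the 37 were higher by a log2 of 1 or more (twistnb by 1.38 and dkc1 by 1.17). Of all genes 1.22% were. In the other direction 4 of the 37 were lower by as much, where the median gene itself stood at -0.84. twistnb overlaps ptk2.2 on the opposite strand and these libraries were unstranded. ptk2.2 had 0.172 RPKM in the mutant nucleus and 3.51 in the sibling nucleus, and the part of mixed reads in the twistnb values was not tested. At the other end nol11 had 7.33 RPKM in the sibling and 2.43 in the mutant nucleus, -0.44 relative to the median gene.

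In cytoplasm, where the median gene moved by 0.02, the highest differences belonged to fbl, wdr43, utp23 and nhp2, which also stood higher in whole-embryo mutants. fbl had 75.8 RPKM in sibling and 130 in mutant cytoplasm, a log2 difference of 0.75. wdr43 had 17.1 and 28.5 (0.69), utp23 5.67 and 9.09 (0.58) and nhp2 27.3 and 41.5 (0.56). utp18 was the lowest with 14.8 and 10.4 RPKM (-0.49). These 5 genes were picked for their differences. In all, 25 of the 37 genes were above the median gene, the median was 0.10, and 0 differed by a log2 of 1 or more, against 1.49% of all genes upward and 1.52% downward.

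**Figure D4:**
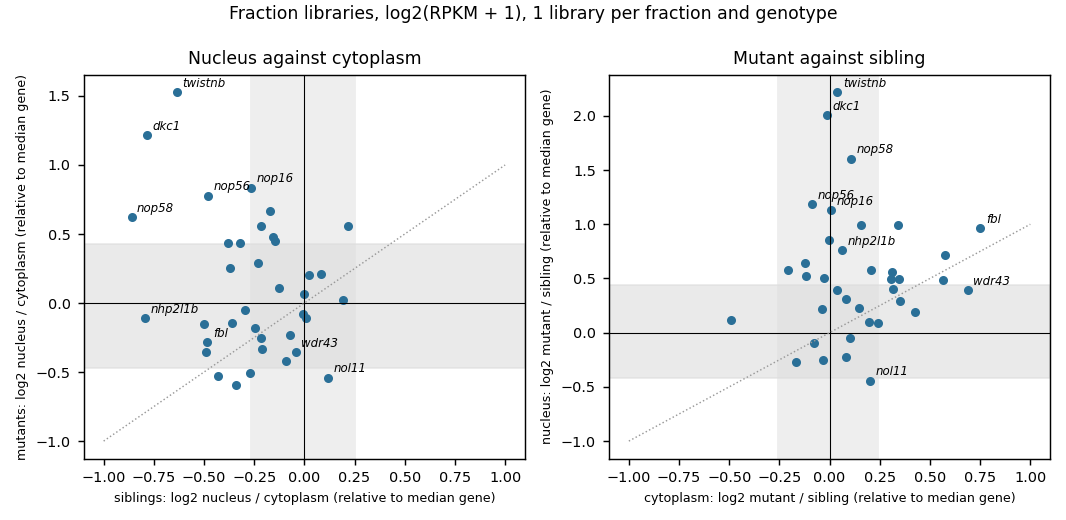
Each point is 1 of the 37 genes, as log2(RPKM + 1) differences relative to the median gene; left, nucleus against cytoplasm in siblings (horizontal) and in mutants (vertical), right, mutant against sibling in cytoplasm (horizontal) and in nucleus (vertical). Grey bands span the middle of all genes from lower to upper quartile and the dotted line marks equal values; twistnb and dkc1 lie highest in both panels, and fbl and wdr43 lie farthest right in the right panel.

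In nucleus against cytoplasm, other lists shifted likewise between the genotypes. The 75 ribosomal protein genes had a nucleus against cytoplasm median of -0.34 in siblings and 0.17 in mutants, and 110 other ribosome biogenesis genes had -0.22 and 0.08. The 12 noncoding records had -0.17 and 0.15. Between the mutant and the sibling nucleus, however, the noncoding records had a median of -0.35. The ribosomal protein genes had 0.36 there and the other ribosome biogenesis genes 0.40. The mutant nucleus also had the smallest share of the authors' reads on listed transcripts, 19.2%, and its part in these values was not tested.

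Genes outside the rule whose levels followed fbl most closely were glulb, ppil4 and rcc1, with Pearson correlations of 0.9999, 0.9998 and 0.9995 over the 6 libraries on a log2 scale after the mean of each replicate was removed. Of the other 36 genes of the set 16 had a correlation above 0.8, as did 1721 of 10146 genes, and their median was 0.76. With 6 libraries and shared replicate means this is a description only.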

How the data were processed

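The libraries measured polyadenylated RNA, stranded in whole embryos and unstranded in the fractions, per the labels. The submitters' processing notes name TopHat2 2.0.8 and the build danRer7. The tool that counted reads, and its use of strand, were not given in the sources used here. Each deposited file gives, per the file headers, a read count, whole and not normalized, and an RPKM for each RefSeq record. The authors' RPKM divides the count by length and by a total larger than the listed reads.

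Counts of the 6 whole-embryo libraries were tested with edgeR 4.0.16 (R 4.3.3; TMM, quasi-likelihood test, group and replicate term, 2 residual degrees of freedom), for the 10147 genes whose mean RPKM was at least 1, with Benjamini-Hochberg adjustment and a threshold of 0.05. Deviations of same-numbered libraries from their group means correlated at 0.758, 0.714 and 0.867, and the files of replicate 1 have another header and start convention. Replicate number was therefore kept as a term, though the labels do not say what it marks or that same-numbered libraries are pairs. Fold intervals are 95% intervals from the fit. For the fractions log2(RPKM + 1) differences were centred on the median of 8631 genes. Alternatives were DESeq2 1.42.0, limma 3.58.1, other scalings, filters and pseudocounts, no replicate term, summed records, only the libraries compared, and each library left out. The scripts were tested on simulated counts. There edgeR called 34% of genes changed 2-fold against siblings and 30% against controls. Of genes changed 4-fold it called 95% and 96%, with 13 and 6 false calls. A gene of the set that did not pass may thus still differ by 2-fold. For some the interval reaches further, as for nol12 against controls (fold 1.59, 95% interval 0.907 to 2.79). Folds between 2 and 4 were not simulated.

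Members, gene lists, the design and its alternatives were chosen with earlier results of these data known. Values in every library are given for fbl, nhp2, the 10 highest and 6 lowest fold changes against siblings, the highest gene of each role, and for the fractions the 5 highest and lowest nucleus-to-cytoplasm genes; not every gene so taken is printed, and others were named after their values were seen. Of the 37 genes, 36 have an accession in the supplied RefSeq table, which was used for names only; imp3 does not. Records of bop1, nop10, nop14, twistnb and utp18 overlap other genes, and their reads may be mixed.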

Additional observations from a re-analysis of the deposited data

Results flagged for a closer look

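Nucleus against cytoplasm differences were set side by side for siblings and mutants, relative to the median gene. In 5 of the 37 genes they had opposite signs and lay a log2 of 1 or more apart. This size was chosen after the values were seen. The share of all genes with such a difference was not counted, so 5 of 37 cannot be called unusual. The difference was -0.64 in siblings and 1.53 in mutants for twistnb. For dkc1 it was -0.79 and 1.21, for nop58 -0.86 and 0.62, for nop56 -0.48 and 0.78, and for nop16 -0.27 and 0.84. As deposited, without the centring, nop58 (-1.08 and -0.44), nop56 (-0.70 and -0.28) and nop16 (-0.48 and -0.22) kept the same sign in both genotypes, so their change of sign comes from the centring; twistnb (-0.85 and 0.47) and dkc1 (-1.003 and 0.16) changed sign there too. With 1 library per fraction and genotype these differences were not tested.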

How the results depend on the processing

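The count of genes past the threshold depended on the fit more than the fold changes did. In mutants against siblings 0 of the 37 genes passed; 9 did with only the libraries compared and 5 by DESeq2, and 0 to 9 with a library left out (9 without control replicate 1 or 2). Against controls 0 passed, 14 by DESeq2, and 0 to 26 with a library left out. Siblings against controls gave 0, and 0 to 2 with a library left out. The cause was not tested. Of all genes 177 passed against siblings (66.7% of them higher), 1198 by DESeq2, 272 and 282 by limma with a pseudocount of 1 and 0.1, 258 with the authors' read totals (48.8% higher), and 2251 with only the libraries compared. Against controls 353 passed, 1721 by DESeq2 and 49 with only the libraries compared; siblings against controls gave 0, and 98 by DESeq2. Without the replicate block 0 genes passed in each comparison, and the medians of the 37 genes were 0.25, 0.45 and 0.21.

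With a library left out, the median of the 37 genes ranged from -0.021 (without mutant replicate 2) to 0.397 for mutants against siblings, from 0.176 to 0.720 for mutants against controls, and from 0.007 to 0.484 for siblings against controls. Ranges of single genes are given for the 22 taken by the naming rule for whole embryos. The other 15 were in the same fits, but their ranges are not given. Among the 22, log2 fold changes against siblings that changed sign ranged from -0.347 to 0.141 for dkc1, -0.021 to 0.727 for nol12, -0.237 to 0.376 for polr1d, -0.724 to 0.227 for rrp36, -0.808 to 0.094 for rrp7a and -0.136 to 0.249 for utp6. Mutants against controls changed sign for imp4 (-0.172 to 0.527), rrp36 (-0.773 to 0.371), rrp9 (-0.293 to 0.223) and wdr12 (-0.124 to 0.314). Siblings against controls changed sign for fbl (-0.017 to 0.134), imp3 (-0.133 to 0.039), nhp2 (-0.022 to 0.464), nol12 (-0.199 to 0.898), nol6 (-0.261 to 0.554), nop10 (-0.026 to 0.379), rrp12 (-0.041 to 0.408), rrp36 (-0.516 to 0.625), rrp7a (-0.868 to 0.329), utp23 (-0.155 to 0.299) and wdr43 (-0.124 to 0.102). In that comparison imp3, at -0.048, was 0.001 with the authors' totals and 0.000 and 0.002 by limma. There wdr43, at -0.008, was 0.044 with the authors' totals, 0.001 with no filter, 0.008 without the block and 0.040 and 0.039 by limma, and rrp36, at 0.019, was -0.011 without the block.

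In the fractions the median of nucleus against cytoplasm was -0.450 in siblings and -1.040 in mutants without centring, and in mutants 0.221 and -0.119 with a pseudocount of 0.1 and 5. For mutant against sibling nucleus it was 0.766 and 0.168 with these pseudocounts and -0.341 without centring, so its sign depends on the scaling. The mutant nucleus, with a median of 317 reads per gene of the set, limits the precision there.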
